A study of Homo sapiens with 4 samples.

Results

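The BCL2 family decides whether a stressed cell opens its mitochondria and dies, and 10 of its genes were followed here in melanoma cells that had adapted to a BRAF inhibitor. The 10 were taken by name: the survival genes BCL2, BCL2L1, MCL1 and BCL2A1, the BH3-only genes BCL2L11, BMF, BBC3 and PMAIP1, and the effector genes BAX and BAK1. All 10 were found among the 62649 counted genes, and all 10 passed the filter on low counts that left 24961 genes for testing. The libraries came from A375, a human melanoma cell line with an activating BRAF mutation. In the resistant group (2 libraries), A375 cells had been adapted to vemurafenib, which blocks the mutant BRAF kinase, by weekly doubling of its concentration from 0.1 to 6.4 µM, and the control group (2 libraries) was the parental line. The labels do not say whether the drug was present at harvest, nor whether the resistant cells were a clone or a mixed population. Both groups are bulk RNA of cultured cells, so fewer cells with a transcript and less of it per cell cannot be told apart.

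Survival proteins of the family hold the effectors BAX and BAK1 in check. BH3-only proteins carry a short helix, the BH3 domain, that fits a groove of the survival proteins, and they either occupy that groove or engage the effectors directly. Once freed, BAX and BAK1 assemble in the outer mitochondrial membrane and let cytochrome c into the cytosol, where caspases are switched on. In melanoma with mutant BRAF, ERK signalling marks the BH3-only protein BIM for destruction and restrains BMF, and the survival protein BCL2A1 is under the control of the lineage factor MITF. Transcript counts per gene see neither protein turnover nor splicing, so the long and short forms of BCL2L1, MCL1 and BCL2L11, some of which have opposite effects on survival, were counted together.

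Counts assigned to genes totalled 68022689 and 85197524 in resistant replicates 1 and 2, and 72290468 and 87178097 in control replicates 1 and 2. Every count in control replicate 1 was even, with 0 odd values, against at least 16285 odd counts in each other library. If its alignments were counted 2 times, its true total would be 36145234 and the counts given for it below would be too high by the same factor. Control replicate 1 also stood apart in content: it was at least 2-fold below each of the other 3 libraries in 6.76% of tested genes, a share that was 2.52% or less for any other library. The lineage marker SOX10 had 969 and 864 CPM (counts scaled to a common library total with TMM factors) in resistant cells and 704 and 1149 CPM in controls, and ERBB3 had 417 and 374.7 CPM in resistant cells and 304 and 432 CPM in controls. The pigment genes TYR and DCT were under 0.3 CPM in all 4 libraries. Summed over 12 markers of fibroblasts, keratinocytes, immune and endothelial cells, the level was 10.8 to 12.6 CPM in resistant libraries and 12.5 to 14.4 CPM in control libraries. Much of each sum was COL1A1, with 7.54 and 7.49 CPM in resistant cells and 7.80 and 4.61 CPM in controls. The keratin gene KRT14, which is among the 12 markers, was lower in resistant cells at 0.309 and 0.314 CPM, against 1.62 and 2.08 CPM in controls (edgeR adjusted p = 0.0355). Of the other markers, LUM, DCN and CDH5 were also below both controls in both resistant libraries, and COL3A1 was above both. EdgeR called none of these.

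None of the 10 genes passed the test of resistant against control cells (quasi-likelihood test in edgeR, with p-values adjusted by Benjamini-Hochberg over all 24961 genes and a threshold of 0.05), where 1.09% of all tested genes were called. None of the 10 reached an unadjusted edgeR p under 0.05 either, against 13.5% of all genes, and DESeq2 called 0 of them, against 5.2% of the genes to which it gave an adjusted p. Fold changes were positive in 8 genes and negative in BCL2L1 and BMF, with a median log2 fold change of 0.30 (resistant over control), beside a median of 0.01 over all tested genes. The resistant libraries did not overlap the controls in 7 of the 10 genes, where 44.6% of all tested genes were separated in this way. They were above both controls in 6 genes, against 22.4% of all genes, and below both in BMF alone, against 22.2%. The labels call the libraries replicates without naming separate cultures, so each p reflects the spread among these 4 libraries, part of which may be technical. For each gene edgeR also borrowed spread from other genes, with 5.69 prior beside 2 residual degrees of freedom.

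**Figure D1:**
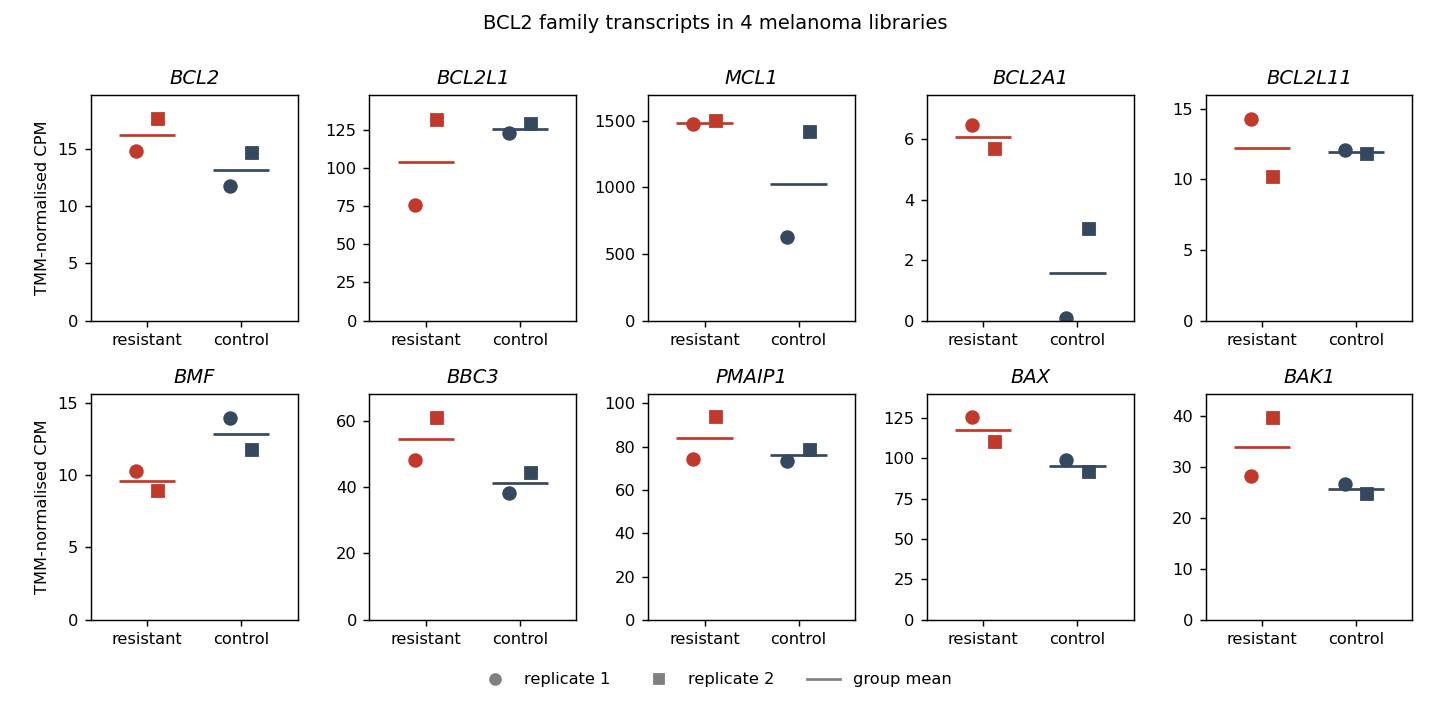
Level of each of the 10 transcripts in each library, as TMM-normalised CPM on axes that start at 0; points are libraries and bars are group means. The 2 controls lie far apart for MCL1 (629 and 1415 CPM) and BCL2A1 (0.0838 and 3.04 CPM), and the 2 resistant libraries lie far apart for BCL2L1 (75.9 and 131 CPM).

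Among the survival genes, BCL2A1 had the highest fold change of the 10, though on low counts. BCL2A1 (ENSG00000140379.9, GRCh38 chromosome 15, 79960892 to 79971196) encodes a small survival protein amplified or induced in some melanomas. It had 6.46 and 5.66 CPM in resistant replicates 1 and 2, against 0.0838 and 3.04 CPM in control replicates 1 and 2. Behind these values stood 459 and 468 counts in the resistant libraries, and 6 and 263 counts in the controls. Both resistant libraries were above both controls, but the controls differed from each other 36.2-fold. The log2 fold change was 1.94 ± 1.03 (SE; 95% interval -0.46 to 4.34; edgeR adjusted p = 0.485), a 3.84-fold higher fitted level in resistant cells that was within the spread between the libraries.

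The size of that difference depended on which control was kept. Without control replicate 1 the log2 fold change of BCL2A1 was 1.00 (edgeR adjusted p = 0.144), and without control replicate 2 it was 6.15 (5.1e-06). Without the filter on low counts BCL2A1 passed as well (log2 1.96, edgeR adjusted p = 2.84e-06). Over all 10 alternatives its adjusted p ranged from 2.84e-06 to 0.815, the highest being that of DESeq2. In every fit the sign was positive.

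The start region of BCL2A1 is shown because this gene differed most between libraries. A further reason is that its window has the lowest G and C content of the 11 windows found for 9 members. It covers 250 bases before and 50 after the RefSeq start on the minus strand (GRCh38.p14, chr15:79971147-79971446). Capitals mark the only TATAAA and the only CATGTG, a form of the E-box that MITF can bind, found on either strand.
BCL2A1: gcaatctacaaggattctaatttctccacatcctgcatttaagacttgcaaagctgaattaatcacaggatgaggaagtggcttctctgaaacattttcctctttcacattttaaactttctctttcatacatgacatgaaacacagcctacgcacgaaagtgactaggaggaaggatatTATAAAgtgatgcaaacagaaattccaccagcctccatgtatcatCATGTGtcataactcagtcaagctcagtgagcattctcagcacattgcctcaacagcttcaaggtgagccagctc
TATAAA occurs in 11.5% and CATGTG in 11.1% of 35116 such windows, so neither letter run is rare, and a match shows no binding. At 41.0% G and C this window lay at percentile 13.0 of all windows.

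MITF itself had 12.3 and 23.4 CPM in resistant cells, against 42.2 and 22.8 CPM in controls (log2 -0.86 ± 0.37, edgeR adjusted p = 0.371). The MITF level was highest in control replicate 1, where BCL2A1 was lowest, and the groups overlapped for MITF. Any part of MITF in the BCL2A1 levels was not tested.

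MCL1 (ENSG00000143384.14, chromosome 1, 150560895 to 150579738), a short-lived survival protein that binds BIM and NOXA, was the most abundant of the 10 in every library. It had 1475 and 1495 CPM in resistant cells and 629 and 1415 CPM in controls. Control replicate 2 was thus close to the resistant pair, and control replicate 1 was below it 2.25-fold. The log2 fold change was 0.54 ± 0.34 (95% interval -0.25 to 1.33; edgeR adjusted p = 0.568). Without control replicate 1 it was 0.07 (adjusted p = 0.998) and without control replicate 2 it was 1.24 (edgeR adjusted p = 0.00169), and over all alternatives the adjusted p ranged from 0.00169 to 0.998. MCL1 and BCL2A1 were the 2 members at least 2-fold lower in control replicate 1 than in each other library, 2 of 10 where 6.76% of tested genes were.

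BCL2L1 (ENSG00000171552.14, chromosome 20, 31664452 to 31723989), which encodes the survival protein BCL-XL and its shorter, death-promoting form, had 75.9 and 131 CPM in resistant cells and 123 and 129 CPM in controls. Resistant replicate 1 was the low library, and resistant replicate 2 was slightly above both controls. The log2 fold change was -0.28 ± 0.26 (95% interval -0.87 to 0.32; edgeR adjusted p = 0.721). It was -0.73 without resistant replicate 2 and 0.07 without resistant replicate 1, so its sign rested on resistant replicate 1. Of its exonic bases, 41.3% are shared with ABALON, a long noncoding RNA gene on the opposite strand, and reads there were not counted for either gene. ABALON had at most 0.115 CPM.

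BCL2 (ENSG00000171791.14, chromosome 18, 63123346 to 63320128), the founding survival gene, had 14.8 and 17.6 CPM in resistant cells and 11.8 and 14.6 CPM in controls. The groups did not overlap, but resistant replicate 1 and control replicate 2 lay side by side. The log2 fold change was 0.30 ± 0.21 (95% interval -0.20 to 0.80; edgeR adjusted p = 0.629).

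Of the BH3-only genes, BBC3 and BMF differed most and in opposite directions. BBC3 (ENSG00000105327.18, chromosome 19, 47220822 to 47232766), which encodes PUMA, which binds all the survival proteins, had 48.2 and 60.7 CPM in resistant cells and 38.1 and 44.3 CPM in controls. Its log2 fold change was 0.40 ± 0.19 (95% interval -0.04 to 0.84; edgeR adjusted p = 0.422), and its unadjusted p of 0.068 was the lowest of the 10. BMF (ENSG00000104081.14, chromosome 15, 40087890 to 40108892), whose protein is tethered to the actin and myosin cytoskeleton until released, had 10.3 and 8.90 CPM in resistant cells and 13.9 and 11.7 CPM in controls. BMF was the only member with both resistant libraries below both controls (log2 -0.42 ± 0.22, 95% interval -0.93 to 0.09; edgeR adjusted p = 0.478). The antisense gene BMF-AS1 shares 8.46% of its exonic bases.

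BCL2L11 and PMAIP1 overlapped between the groups. BCL2L11 (ENSG00000153094.24, chromosome 2, 111119378 to 111168445), which encodes BIM, had 14.3 and 10.1 CPM in resistant cells and 12.1 and 11.8 CPM in controls. Both controls lay between the resistant libraries, 13.8% of its exonic bases are shared with other genes, and the log2 fold change was 0.03 ± 0.24 (95% interval -0.51 to 0.58; edgeR adjusted p = 0.973). PMAIP1 (ENSG00000141682.12, chromosome 18, 59899996 to 59904305), which encodes NOXA, a selective partner of MCL1 and BCL2A1, had 74.2 and 93.8 CPM in resistant cells and 73.6 and 78.5 CPM in controls. Its log2 fold change was 0.14 ± 0.18 (95% interval -0.27 to 0.56; edgeR adjusted p = 0.811). For both genes the interval leaves out a doubling and a halving of the transcript, which on the log2 scale are 1 and -1. The signs of both turned with 1 resistant library left out.

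Both effector genes were higher in the 2 resistant libraries than in the 2 controls without passing the test. BAX (ENSG00000087088.21, chromosome 19, 48954815 to 48961798) had 125 and 110 CPM in resistant cells and 99.0 and 91.4 CPM in controls (log2 0.31 ± 0.17, 95% interval -0.08 to 0.69; edgeR adjusted p = 0.496). BAK1 (ENSG00000030110.14, chromosome 6, 33572547 to 33580293) had 28.3 and 39.5 CPM in resistant cells and 26.6 and 24.6 CPM in controls (log2 0.40 ± 0.21, 95% interval -0.08 to 0.89; edgeR adjusted p = 0.47). For BAK1 resistant replicate 2 was the high library, and without it the log2 fold change was 0.15. The copies BAK1P1 and BAK1P2 had at most 10 counts in any library, and reads that match several places were not counted.

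The start region of BAX is shown as a contrast, with the highest observed over expected frequency of CG of the 11 member windows (GRCh38.p14, plus strand, chr19:48954625-48954924). Capitals mark 4 copies of CACGTG, the palindromic E-box read by MYC and MITF among other factors.
BAX: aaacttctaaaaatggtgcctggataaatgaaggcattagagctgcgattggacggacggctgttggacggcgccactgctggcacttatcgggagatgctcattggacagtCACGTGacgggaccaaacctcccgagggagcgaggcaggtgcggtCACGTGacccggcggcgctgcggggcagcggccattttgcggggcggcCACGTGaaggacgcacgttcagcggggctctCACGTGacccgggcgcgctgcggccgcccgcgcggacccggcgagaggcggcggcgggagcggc
CACGTG occurs at least once in 7.26% of all 35116 windows, and 5 windows, this one included, hold 4 or more. MYC had 34.7 and 73.1 CPM in resistant cells and 53.1 and 47.3 CPM in controls (log2 0.11, edgeR adjusted p = 0.939).

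**Figure D2:**
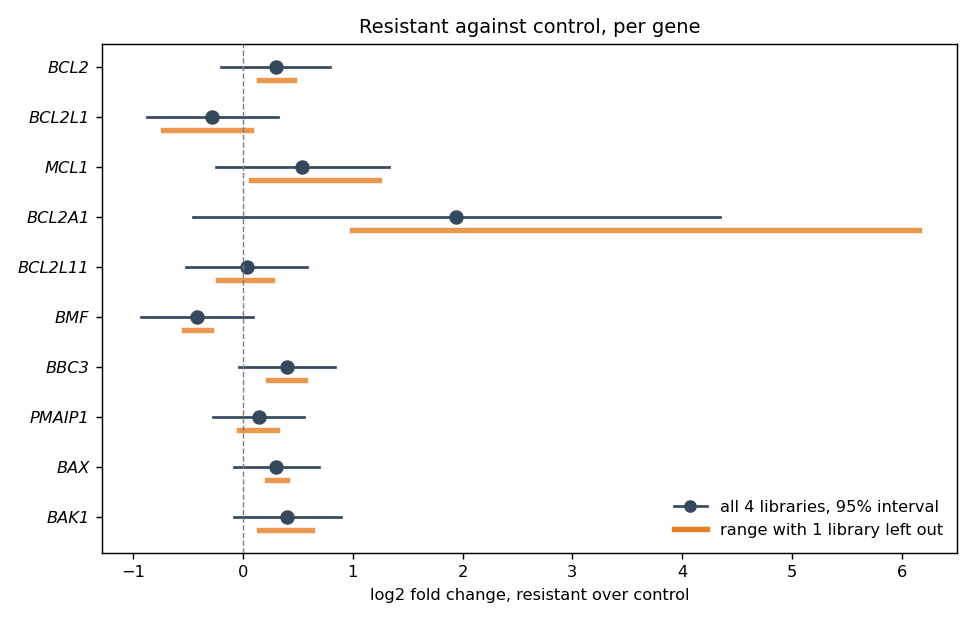
Log2 fold change of each gene, resistant over control; dots and dark lines give the fit of all 4 libraries with its 95% interval, orange bars the range of the 4 fits with 1 library left out. All 10 intervals include 0, and the orange bar of BCL2A1 runs from 1.00 to 6.15.

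Levels per length, as TPM computed from the counts and the exonic length of each gene, put the 10 genes in nearly the same order in all libraries. MCL1 led with 904 and 854 TPM in resistant cells and 358 and 831 TPM in controls, which was rank 108 and 114 of the 24961 tested genes in resistant cells and rank 297 and 117 in controls. BAX, PMAIP1 and BCL2L1 followed. BAX had 185 and 151 TPM in resistant cells and 135 and 129 TPM in controls, and PMAIP1 had 129 and 152 TPM in resistant cells and 119 and 131 TPM in controls. These 2 neighbours swapped places between libraries and were not separated by the spread. BCL2L1 had 69.0 and 111 TPM in resistant cells and 103 and 112 TPM in controls, values that are too low as far as reads in the stretch shared with ABALON were dropped.

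BBC3 and BAK1, between 40.7 and 67.7 TPM in all libraries, formed the middle of the order and overlapped each other. BCL2A1 came next in 3 libraries with 24.8 and 20.2 TPM in resistant cells and 11.2 TPM in control replicate 2, and was last in control replicate 1 with 0.298 TPM. BMF and BCL2L11 lay between 5.41 and 9.04 TPM and overlapped. BCL2 was last in the 3 libraries where BCL2A1 was not, with 4.49 and 4.96 TPM in resistant cells and 4.24 TPM in control replicate 2.

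**Figure D3:**
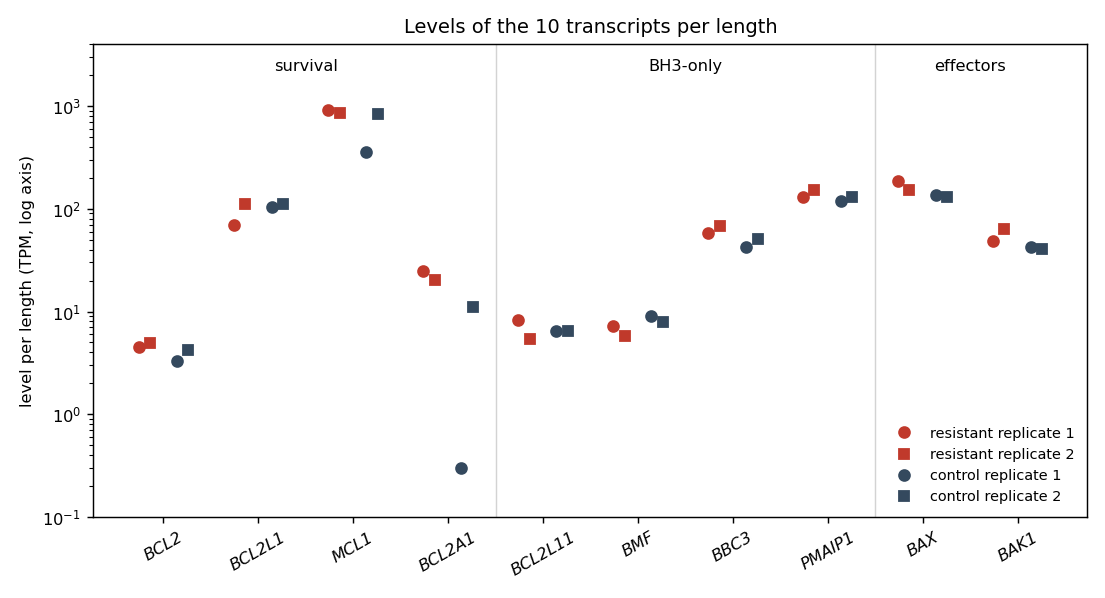
Levels per length (TPM, log axis) of the 10 genes in the 4 libraries, in the order survival, BH3-only and effector genes. MCL1 is highest in every library, between 358 and 904 TPM, and the BCL2A1 point of control replicate 1 lies at 0.298 TPM.

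MCL1 therefore made up most of the summed TPM of the 4 survival genes. Its share was 90.2% and 86.2% in resistant cells and 77.0% and 86.7% in controls. BCL2L1 held 6.88% and 11.2% in resistant cells and 22.3% and 11.7% in controls. BCL2A1 held 2.47% and 2.04% in resistant cells, against 0.0642% and 1.16% in controls, and BCL2 held less than 1% in each library. With length limited to bases that no other gene shares, the share of MCL1 was 86.7% and 80.8% in resistant cells and 67.8% and 81.0% in controls, and that of BCL2L1 was 10.7% and 17.0% in resistant cells and 31.6% and 17.6% in controls. The control libraries differed from each other more than control replicate 2 differed from resistant replicate 2.

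The BH3-only sum was then set against the survival sum. The 4 BH3-only genes added up to 203 and 231 TPM in resistant cells and 177 and 196 TPM in controls, and the 4 survival genes to 1003 and 990 TPM in resistant cells and 465 and 959 TPM in controls. The ratio of the sums was 0.202 and 0.234 in resistant cells and 0.381 and 0.205 in controls. Control replicate 2 lay between the resistant libraries, and control replicate 1 stood outside. Transcript ratios are not protein ratios.

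Beyond the 10, 13 further BCL2 family genes had 0 calls in edgeR over all genes, and the median log2 fold change was -0.27. The unadjusted edgeR p was under 0.05 in 2 of the 13, against 13.5% of all tested genes. DESeq2 called BIK lower and HRK higher among the 13, where it called 5.2% of all genes to which it gave an adjusted p. BIK, a BH3-only protein of the endoplasmic reticulum, had 1.53 and 1.46 CPM in resistant cells and 5.90 and 4.16 CPM in controls (log2 -1.74 ± 0.31, edgeR adjusted p = 0.0503). It was past the threshold under 6 of the 10 alternatives, with adjusted p from 8.25e-05 (DESeq2) to 0.244 (without resistant replicate 2). HRK, a BH3-only protein studied mostly in neurons, had 9.68 and 15.3 CPM in resistant cells and 4.86 and 6.95 CPM in controls (log2 1.08 ± 0.31, edgeR adjusted p = 0.158). HRK was past the threshold with DESeq2 (adjusted p = 0.0135), without the filter on low counts and without control replicate 2, and its adjusted p ranged from 0.00303 to 0.68.

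Other relatives differed less. BAD, a BH3-only protein silenced by phosphorylation, had 17.0 and 17.8 CPM in resistant cells and 27.5 and 20.3 CPM in controls (edgeR adjusted p = 0.409), with 23.7% of its exonic bases shared with a gene on the opposite strand. BID, which links death receptors to mitochondria, had 35.8 and 34.5 CPM in resistant cells and 35.2 and 31.9 CPM in controls. The survival gene BCL2L2 had 55.8 and 61.2 CPM in resistant cells and 40.3 and 60.1 CPM in controls (edgeR adjusted p = 0.746), with 24.8% of its exonic bases shared with other genes, a read-through transcript among them.

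Of 22 genes listed as death machinery at or downstream of the step of BAX and BAK1, edgeR and DESeq2 called 0 (median log2 fold change -0.14). An unadjusted edgeR p under 0.05 was found in 2 of the 22, against 13.5% of all tested genes. These 2 were DFFA, the inhibitor of the DNA-cutting nuclease of apoptosis, and BIRC5, which encodes survivin, a protein made in dividing cells. DFFA had 298 and 312 CPM in resistant cells and 239 and 219 CPM in controls (log2 0.41, edgeR adjusted p = 0.335). BIRC5 had 33.0 and 67.5 CPM in resistant cells and 114 and 76.7 CPM in controls (log2 -0.93, edgeR adjusted p = 0.283). The proliferation marker MKI67 had 88.3 and 107 CPM in resistant cells and 277 and 171 CPM in controls (edgeR adjusted p = 0.0772), and the part of proliferation in the BIRC5 levels was not tested.

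The caspase inhibitor gene BIRC3 had 49.6 and 31.2 CPM in resistant cells and 15.0 and 38.2 CPM in controls (edgeR adjusted p = 0.609). Its level in control replicate 1 was at least 2-fold below that in each other library, as in 6.76% of tested genes. XIAP, the most direct inhibitor of caspases, had 103 and 101 CPM in resistant cells and 69.3 and 88.5 CPM in controls (edgeR adjusted p = 0.441). The apoptosome gene APAF1 had 26.6 and 20.6 CPM in resistant cells and 28.1 and 28.0 CPM in controls. The caspase it activates, CASP9, had 16.7 and 17.6 CPM in resistant cells and 21.5 and 20.8 CPM in controls. The groups did not overlap in 14 of the 22 genes of this list, where 44.6% of all tested genes were separated. The caspase gene CASP6 had 7.57 and 7.51 CPM in resistant cells and 14.2 and 8.24 CPM in controls. The adjusted edgeR p of APAF1, CASP9 and CASP6 was 0.462 or more.

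Among 20 factors and turnover enzymes known to act on the 10 genes or their proteins, edgeR and DESeq2 called 0 (median log2 fold change 0.00). Of these 20 genes, 4 had an unadjusted edgeR p under 0.05, against 13.5% of all tested genes. DDIT3, the stress factor CHOP, had 46.9 and 59.8 CPM in resistant cells and 34.6 and 31.7 CPM in controls (log2 0.69, edgeR adjusted p = 0.148), with 39.6% of its exonic bases shared with other genes. FOXO1, a factor that can switch on BCL2L11 and BBC3, had 5.81 and 7.62 CPM in resistant cells and 4.08 and 4.54 CPM in controls (log2 0.64, edgeR adjusted p = 0.346), with 22.7% of its exonic bases shared with another gene. MDM2, which encodes a ubiquitin ligase and is named after its values were seen, had 107 and 95.8 CPM in resistant cells and 79.5 and 71.1 CPM in controls (log2 0.43, edgeR adjusted p = 0.311). The fourth of these genes was MITF, described above. FOXO3 had 28.7 and 26.7 CPM in resistant cells and 35.6 and 28.1 CPM in controls (log2 -0.20, edgeR adjusted p = 0.73). The cell cycle factor E2F1 had 53.8 and 20.2 CPM in resistant cells and 54.8 and 43.9 CPM in controls, with resistant replicate 2 the low library.

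In the death receptor route, 3 of 14 genes were too low to test, and edgeR and DESeq2 called 0 of the other 11 (median log2 fold change -0.16). An unadjusted edgeR p under 0.05 was found in 1 of these 11, against 13.5% of all tested genes. That gene was CASP10, an initiator caspase, with 4.53 and 4.77 CPM in resistant cells and 8.66 and 7.63 CPM in controls (log2 -0.81, edgeR adjusted p = 0.178). The TRAIL receptor gene TNFRSF10B had 310 and 346 CPM in resistant cells and 154 and 307 CPM in controls (edgeR adjusted p = 0.544). Its level in control replicate 1 was at least 1.5-fold below that in each other library, as in 11.2% of tested genes. FAS had 17.5 and 17.5 CPM in resistant cells and 14.1 and 10.7 CPM in controls, and the TNF receptor gene TNFRSF1A had 128 and 161 CPM in resistant cells and 181 and 179 CPM in controls (edgeR adjusted p = 0.376 and 0.522).

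**Figure D4:**
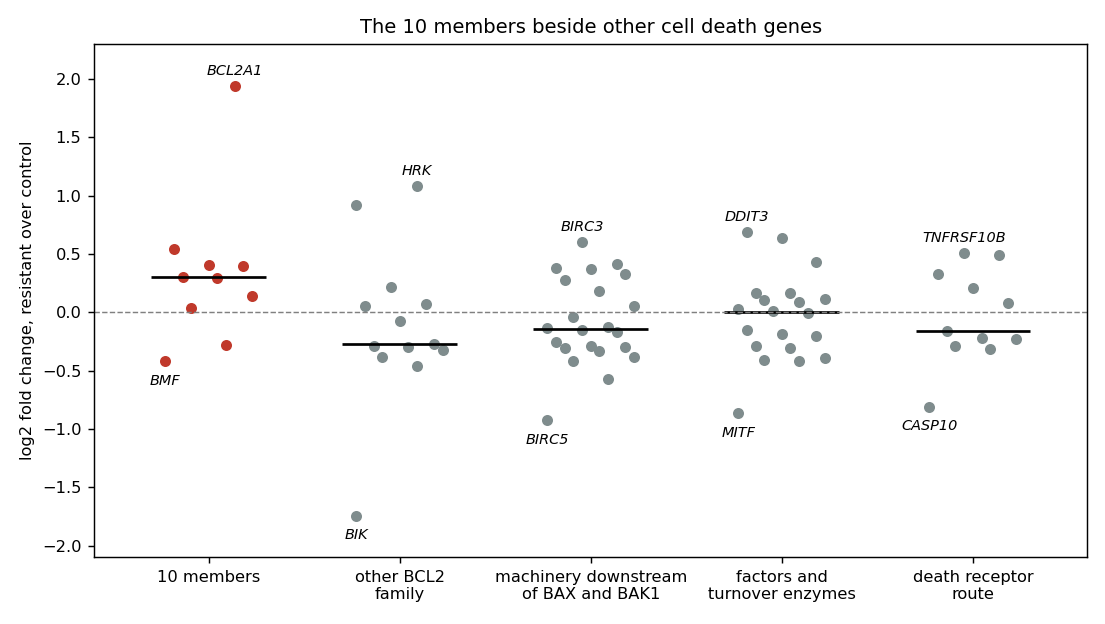
Log2 fold change, resistant over control, of each tested gene in the 10 members and 4 further lists; bars are list medians and the highest and lowest gene of each list is named. The member median is 0.30 and the other medians lie between -0.27 and 0.00.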

How the data were processed

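PolyA-selected, strand-specific, paired-end RNA libraries were sequenced, per the labels' protocols. The authors deposited raw gene counts, made with featureCounts 2.0.0 and GENCODE release 42 on duplicate-marked alignments with no further option, per the file headers. The resistant files are named for samples 5 and 6 where the labels say 3 and 4, and files were assigned by their GEO record. STAR and GRCh38 are named in the submitters' processing notes. By default, featureCounts ignores strand, counts mates singly and drops reads shared by several genes. A table of fold changes that names no comparison was not used.

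Genes passing filterByExpr were tested with edgeR 4.0.16 (quasi-likelihood, TMM, group alone, two-sided, R 4.3.3), after a check on simulated counts. The SE was derived from the log2 fold change and its F statistic, and intervals use edgeR's total degrees of freedom. Means rest on 2 libraries a group, and 3 counts correspond to 0.0346 to 0.0422 CPM, which covers counting error only. DESeq2 1.42.0, other scalings, no filter, a replicate block, control replicate 1 halved and each library left out were alternatives. Promoter windows came from RefSeq (GRCh38.p14), with 9 of the 10 genes in the table used here. Members and lists were chosen with earlier results of these data known. Named are the 10 members, 11 fixed genes (2 of which are not reported here), called list genes and the 2 highest and 2 lowest of each list with at least 5 CPM. MYC, KRT14 and markers were added.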

Additional observations from a re-analysis of the deposited data

How the results depend on the processing

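Of 100 refits of the 10 genes under 10 alternatives, 94 kept both sign and side of the threshold. None of the 10 had passed in the main fit, so keeping the side meant staying uncalled. All refits drew on the same 4 libraries. Dropping single libraries turned 3 signs: log2 values ran from -0.73 to 0.073 for BCL2L1 and from -0.23 to 0.26 for BCL2L11, turning without resistant replicate 1, and from -0.034 to 0.31 for PMAIP1, turning without resistant replicate 2. BCL2A1 passed without the filter on low counts and without control replicate 2, and MCL1 without control replicate 2. With control replicate 1 halved, the log2 fold change was 1.87 for BCL2A1 and 0.54 for MCL1. Genes called higher and lower over all genes numbered 144 and 128, and 168 and 157 with control replicate 1 halved. They numbered 905 and 961 without the filter on low counts, 593 and 636 with DESeq2, and 33 and 31 with a replicate block. With 1 library left out they ranged from 7 to 1146 higher and from 9 to 1020 lower, with the lone sample of a group assumed to vary like the other group. The replicate numbers share no batch in the labels. The replicate differences of the groups did not correlate across 10089 genes (Pearson's r = -0.0057). With a single difference per group, that correlation cannot exclude a shared batch. The mean share of survival gene levels by raw counts was 1.01% in resistant and 1.24% in control cells for BCL2, 92.2% in resistant cells for MCL1 and 0.377% in resistant cells for BCL2A1. With length limited to unshared bases, chosen after seeing the data, it was 83.7% in resistant and 74.4% in control cells for MCL1, 13.8% in resistant and 24.6% in control cells for BCL2L1 and 0.426% in resistant cells for BCL2. By TPM the mean share was 0.475% in resistant and 0.576% in control cells for BCL2, and 88.2% in resistant and 81.8% in control cells for MCL1. For BCL2L1 it was 9.06% in resistant and 17.0% in control cells, and for BCL2A1 it was 2.26% in resistant cells. The scales used the same counts and differed only in the length, if any, by which counts were divided. Depth limits BCL2A1 most, with 6 counts in control replicate 1.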

Other observations

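The start regions of the family differed widely in composition. Over the 11 RefSeq windows of 9 members (BCL2L1 and BMF have 2 each; MCL1 is named only), the G and C content ran from 41.0% for BCL2A1 to 74.7% for BCL2L11, beside a median of 58.7% over 35116 windows. The observed over expected frequency of CG was highest for BAX (1.15) and PMAIP1 (1.11) and was 0.163 for BCL2A1 and 0.0546 for the second window of BMF, beside a median of 0.579. GGGCGG, the core letters of a GC box, occurred on either strand in the windows of BCL2L11 (3), PMAIP1 (4), BAX (2), BAK1 (2), in the first window of BMF (2) and in the second of BCL2L1 (1), and 45.0% of all windows hold it. The BBC3 window held 1 CACGTG and 1 TGACTCA, the letters of an AP-1 site, which 4.95% of all windows hold. The first BMF window held 1 match to the NF-kB consensus, which 11.3% of all windows hold, and TGACGTCA occurred in none of the 11.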
